A study of Rattus norvegicus with 6 samples.

Results

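Immediate early genes are transcribed within minutes of a stimulus without new protein synthesis, and 10 of them were followed here in rat dorsal root ganglia, where sensory neurons have their cell bodies. They were Fos, Fosb, Fosl2, Junb, Jund, Egr1, Egr3, Arc, Nr4a1 and Ier2, chosen by name and found by matching gene ID to rat symbol, out of 14346 genes listed in at least 1 library. All 10 were found, and 9 were listed in all 6 libraries. Fosb was absent from the file of sham replicate 3 and was taken as 0 there.

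Ganglia came from rats 7 days after partial sciatic nerve ligation (pSNL, 3 libraries) or after a sham operation (3 libraries). In pSNL a tight tie is placed around part of the nerve, so ganglia of that group can hold injured and spared neurons side by side. The labels name neither strain, sex, age and ganglion level nor any pooling, and do not tie a library to an animal of its own. All p-values are therefore measured against differences among libraries that may be technical.

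Each pSNL library held 4339565 to 4416121 estimated read counts and each sham library 4310643 to 4412391, so depth was close to equal. Defining markers of sensory neurons (Prph, Scn10a, Uchl1, Nefh, Tubb3, Isl1, Avil) were present in every library. Levels are given as CPM, the read count relative to the library size after TMM scaling, with 1 CPM equal to 4.33 to 4.41 counts. The summed level of these markers was 24140 to 24995 CPM in pSNL libraries and 21341 to 26765 CPM in sham libraries. Sham replicate 3 stood apart in central glia markers, at 2606 CPM summed against 376 to 507 CPM in the other 5 libraries. The defining ones among them (Gfap, Aqp4, Mog, Slc1a2) summed to 1124 CPM there and to 22.0 to 54.3 CPM in the other 5. Skeletal muscle markers were at 1149 CPM in pSNL replicate 3 and 567 CPM in sham replicate 3, against 10.1 to 20.2 CPM elsewhere.

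Stimuli reach these genes mainly through calcium and MAP kinase signalling, which act on the transcription factors CREB and SRF already sitting at their promoters. CREB binds the cAMP response element, and SRF binds the CArG box with its ternary complex partners. Most of the genes encode transcription factors themselves: FOS and JUN proteins pair to form AP-1, EGR proteins are zinc finger factors, and NR4A1 is an orphan nuclear receptor. Arc encodes a cytoskeleton-associated protein of neurons, and in spinal neurons Fos and Egr1 are widely used as marks of recent stimulation.

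Promoter windows running from 250 bases before to 50 bases after the annotated start were held for 7 of the 10 members in the RefSeq table of rat assembly GRCr8, and those of Fos, Egr3 and Arc were not used here. Those of Egr1 (chr18:26736828-26737127, plus strand), Junb (chr19:40080876-40081175, plus strand), Ier2 (chr19:40399123-40399422, plus strand), Nr4a1 (chr7:134259888-134260187, plus strand) and Jund (chr16:18769722-18770021, minus strand) are shown 5′ to 3′ because they hold matches to these 2 kinds of element. The first 3 belong to genes that stood far out in 1 library below, and the other 2 to genes that varied less. Capitals mark TGACG, the core of the cAMP response element, and the CArG box, each read on both strands.
Egr1: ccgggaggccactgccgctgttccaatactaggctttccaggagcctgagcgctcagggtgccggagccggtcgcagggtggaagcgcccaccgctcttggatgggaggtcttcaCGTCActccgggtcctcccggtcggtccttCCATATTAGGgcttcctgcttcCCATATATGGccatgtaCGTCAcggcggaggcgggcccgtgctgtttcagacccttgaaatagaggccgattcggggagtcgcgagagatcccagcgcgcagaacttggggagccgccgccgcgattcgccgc
Junb: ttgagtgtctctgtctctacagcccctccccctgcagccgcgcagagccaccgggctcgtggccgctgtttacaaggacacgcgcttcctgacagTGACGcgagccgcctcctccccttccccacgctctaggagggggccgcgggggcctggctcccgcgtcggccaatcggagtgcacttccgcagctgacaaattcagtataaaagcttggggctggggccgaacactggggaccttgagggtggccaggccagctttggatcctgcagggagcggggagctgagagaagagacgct
Ier2: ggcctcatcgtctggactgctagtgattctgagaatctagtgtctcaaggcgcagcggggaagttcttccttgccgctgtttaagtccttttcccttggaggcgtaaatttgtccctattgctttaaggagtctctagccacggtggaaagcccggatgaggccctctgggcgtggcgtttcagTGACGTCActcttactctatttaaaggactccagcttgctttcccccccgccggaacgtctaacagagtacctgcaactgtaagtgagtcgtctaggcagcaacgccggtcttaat
Nr4a1: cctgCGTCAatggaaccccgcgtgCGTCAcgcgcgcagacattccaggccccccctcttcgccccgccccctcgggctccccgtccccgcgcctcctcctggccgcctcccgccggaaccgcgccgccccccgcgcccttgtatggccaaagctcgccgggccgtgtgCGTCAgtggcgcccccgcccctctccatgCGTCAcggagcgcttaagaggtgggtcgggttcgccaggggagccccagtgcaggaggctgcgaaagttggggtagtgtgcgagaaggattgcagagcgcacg
Jund: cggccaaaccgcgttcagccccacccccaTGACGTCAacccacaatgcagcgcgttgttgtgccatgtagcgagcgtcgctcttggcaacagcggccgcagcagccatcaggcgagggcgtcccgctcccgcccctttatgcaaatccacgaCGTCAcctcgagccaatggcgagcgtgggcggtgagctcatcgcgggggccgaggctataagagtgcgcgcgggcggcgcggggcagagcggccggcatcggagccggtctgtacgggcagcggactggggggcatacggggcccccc

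The Egr1 window held 2 CArG boxes and 2 copies of TGACG. TGACGTCA, the full palindromic element, which contains TGACG on both strands, was found in Jund and Ier2. TGACG itself was found in 5 of the 7 windows, against 21.2% of all 33469 promoter windows of the table and 31.9% of the 9464 that belong to tested genes. TGACGTCA was found in 2 of 7, against 1.83% of all windows and 3.3% of those of tested genes, and the CArG box in 1 of 7, against 1.64% and 1.13%. The windows of Fosb and Fosl2 held none of these. TGANTCA, an AP-1 site, was in none of the 7, in 7.33% of all windows and in 5.05% of those of tested genes, while GCGTGGGCG, an EGR site, was in Jund alone, in 0.544% of all windows and in 1.06% of those of tested genes. Such matches were present in genes that led far in 1 library below and in genes that did not.

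The high level of Fos, Fosb, Egr1, Junb and Ier2 came mainly from 1 of the 3 pSNL libraries, replicate 2. It supplied 77.3% to 98.7% of their level summed over pSNL. Its share was 64.4% for Fosl2 and 41.5% to 46.8% for Jund, Arc, Egr3 and Nr4a1. In pSNL replicate 2, Fos stood at 426 CPM and Fosb at 212 CPM, whereas the other 5 libraries had at most 14.4 and 1.83 CPM of them. All 10 members were highest in pSNL replicate 2, and 5 of them (Fosb, Fos, Egr1, Junb, Ier2) exceeded every other library there by at least 4-fold. None of the 8 members that passed the filter on low counts changed between pSNL and sham by edgeR's quasi-likelihood test at an adjusted p of 0.05, while 0.46% of all 11091 tested genes did (51 genes, 0.442% higher and 0.018% lower in pSNL). In that fit none of the 8 had an unadjusted p under 0.05 (15.5% of tested genes did). The number was 4 of 8 (Fos, Junb, Egr1 and Nr4a1) in edgeR without its robust option, where it was 15.9% of tested genes, and 3 of 8 without pSNL replicate 1, where it was 15.5%, and no member was called in either. DESeq2 called 0 members and 3.01% of tested genes, with 1 member and 12.1% of genes at an unadjusted p under 0.05, and it gave no p for Fos and Egr1 by its own rule on outlying counts. The groups overlapped for all 10 members, whereas they did not overlap for 21.5% of tested genes (11.1% higher and 10.4% lower in pSNL). In bulk tissue, a change in the number of cells of a type and a change in RNA per cell cannot be told apart.

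**Figure D1:**
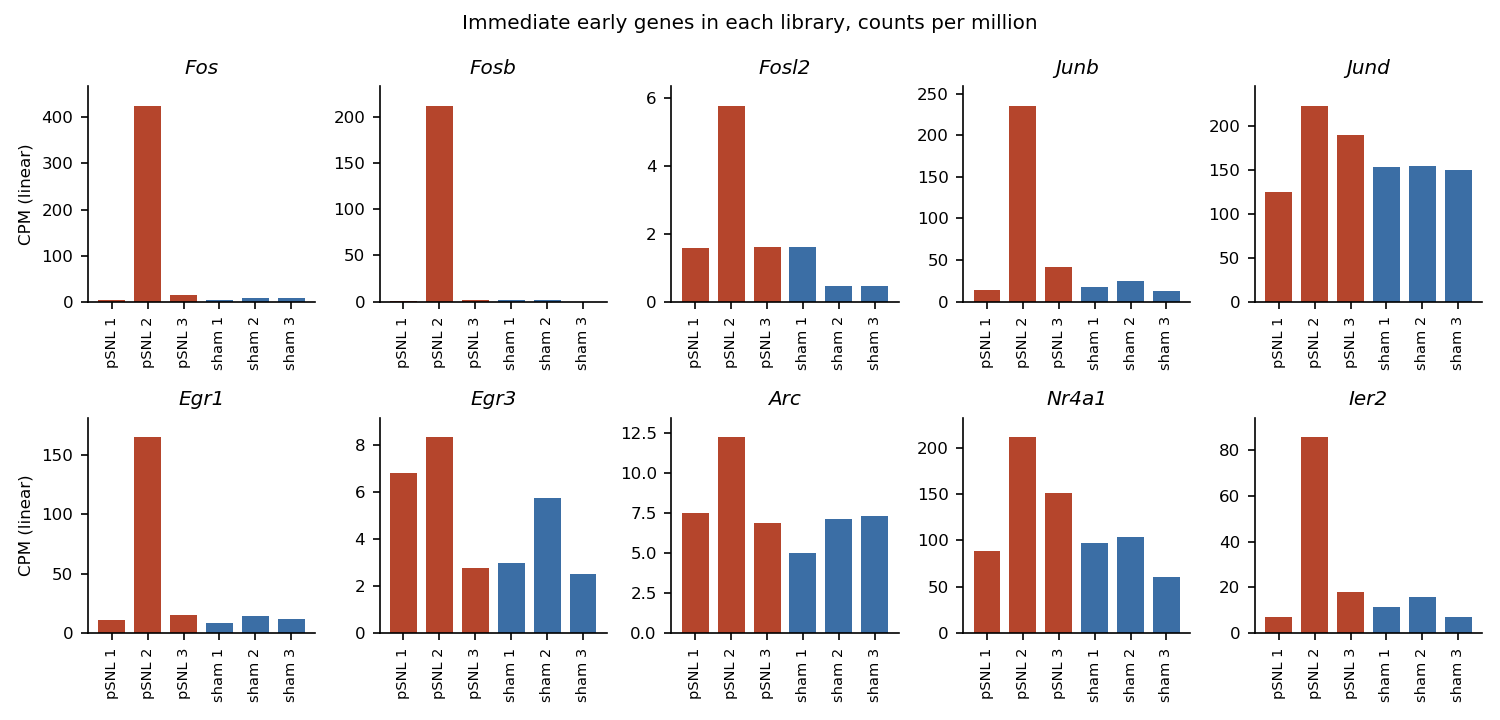
Level of each of the 10 members in CPM, on a linear axis with its own scale in each panel, with 1 bar for each pSNL library (red) and each sham library (blue). The bar of pSNL replicate 2 is the highest in every panel, from 5.78 CPM for Fosl2 to 426 CPM for Fos.

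Fos (gene ID 314322) encodes the AP-1 subunit c-Fos, from a transcript that is made quickly and decays quickly. Its level was 3.18, 426 and 14.4 CPM in pSNL replicates 1 to 3 and 4.81, 8.26 and 7.12 CPM in sham replicates 1 to 3. Replicate 2 alone supplied 96.0% of the Fos level summed over pSNL, replicate 3 lay above all sham libraries, and replicate 1 was the lowest of all 6. The means were 148 ± 241 CPM in pSNL and 6.73 ± 1.76 CPM in sham (SD, n = 3 each), and the log2 fold change was 4.45 ± 2.18 (SE, edgeR adjusted p = 0.430). The SD of the pSNL group thus exceeded its mean.

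Fosb (gene ID 100360880) gives rise to FosB and, by splicing, to the long-lived ΔFosB, which the gene counts do not separate. It was at 0.908, 212 and 1.83 CPM in pSNL replicates 1 to 3, against 1.83, 1.61 and 0 CPM in sham replicates 1 to 3. The 0 in sham replicate 3 allows up to 0.689 CPM (3 counts). Replicate 2 held 916 of the 928 Fosb counts of pSNL, and the other 2 pSNL libraries lay at the level of sham. Fosb failed the filter on low counts, which asks for a minimum in as many libraries as the smaller group has. Its summed counts of 928 in pSNL and 15 in sham gave, relative to library size, a ratio of 61.8 (exact 95% interval 37.3 to 111), which covers counting error only and leaves out the spread between libraries. That spread gave an exact two-sided permutation p of 0.4 over the 6 libraries, where the smallest p that 3 against 3 can give is 0.1. Without pSNL replicate 2 the counts were 12 in pSNL and 15 in sham, a ratio of 1.19 (0.51 to 2.73) once scaled to the library sizes of 2 pSNL and 3 sham libraries.

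Fosl2 (gene ID 25446), encoding the FOS relative Fra-2, was at 1.59, 5.78 and 1.61 CPM in pSNL replicates 1 to 3 and at 1.60, 0.459 and 0.460 CPM in sham replicates 1 to 3. The 5.78 CPM in pSNL replicate 2 were 25 counts, and all other libraries had 7 counts or fewer. Fosl2 also failed the filter, with an exact two-sided permutation p of 0.2 (smallest possible 0.1) and summed counts of 39 in pSNL and 11 in sham. The length that the files list for it differs between libraries (729 to 984 bases), and 2 transcripts are listed for it.

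Junb (gene ID 24517), an AP-1 subunit that is itself an early gene, was at 14.1, 236 and 42.2 CPM in pSNL replicates 1 to 3, against 17.4, 25.0 and 13.1 CPM in sham replicates 1 to 3. Replicates 2 and 3 of pSNL lay above all sham libraries, and replicate 1 lay within their range. The means were 97.3 ± 121 CPM in pSNL and 18.5 ± 6.03 CPM in sham, with a log2 difference by edgeR of 2.39 ± 1.23 (SE, adjusted p = 0.450). Jund (gene ID 24518), the JUN subunit that is made more steadily and is often grouped with the early genes by family, had a narrower range. It was at 125, 224 and 189.9 CPM in pSNL replicates 1 to 3 and at 154, 155 and 150.3 CPM in sham replicates 1 to 3. Sham libraries were nearly level, with a highest-to-lowest ratio of 1.03, while 1 pSNL library lay below and 2 lay above them. Its log2 fold change was 0.23 ± 0.19 (SE, edgeR adjusted p = 0.611).

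Egr1 (gene ID 24330), the zinc finger factor also called Zif268 or NGFI-A, was at 11.1, 165 and 15.4 CPM in pSNL replicates 1 to 3 and at 8.48, 14.2 and 12.2 CPM in sham replicates 1 to 3. Apart from pSNL replicate 2, the 2 groups covered nearly the same range. The means were 63.8 ± 87.5 CPM in pSNL and 11.6 ± 2.91 CPM in sham, and the log2 fold change was 2.45 ± 1.34 (SE, edgeR adjusted p = 0.477). Egr3 (gene ID 25148), a related factor that responds to activity and to neurotrophins, was at 6.81, 8.32 and 2.75 CPM in pSNL replicates 1 to 3 and at 2.98, 5.74 and 2.53 CPM in sham replicates 1 to 3. In pSNL replicate 2 it was at 1.22 times the next library, pSNL replicate 1, and the groups overlapped. Each Egr3 value rested on 11 to 36 counts, and its log2 fold change was 0.67 ± 0.46 (SE, edgeR adjusted p = 0.524).

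Nr4a1 (gene ID 79240), the nuclear receptor Nur77, was at 88.8, 211 and 151 CPM in pSNL replicates 1 to 3, against 97.2, 103 and 60.9 CPM in sham replicates 1 to 3. It had the lowest adjusted p of the 8 tested members, with means of 150.4 ± 61.3 CPM in pSNL and 87.1 ± 22.9 CPM in sham and an edgeR log2 fold change of 0.79 ± 0.38 (SE, adjusted p = 0.409). Replicates 2 and 3 of pSNL lay above all sham libraries, and replicate 1 within them. Ier2 (gene ID 494344), a small early gene product with a nuclear role, was at 7.26, 85.5 and 17.9 CPM in pSNL replicates 1 to 3 and at 11.2, 15.8 and 7.12 CPM in sham replicates 1 to 3. Its log2 fold change was 1.69 ± 1.08 (SE, edgeR adjusted p = 0.532).

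Arc (gene ID 54323), which acts at synapses and is the effector among the members, was at 7.49, 12.3 and 6.88 CPM in pSNL replicates 1 to 3 and at 5.04, 7.11 and 7.35 CPM in sham replicates 1 to 3. Only pSNL replicates 1 and 2 lay above all sham libraries, with replicate 3 of pSNL below 2 of the 3 sham libraries. The margin of pSNL replicate 1 was small, at 33 counts against 32 in sham replicate 3. The Arc log2 fold change was 0.45 ± 0.30 (SE, edgeR adjusted p = 0.513), on 22 to 53 counts per library.

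The lead of pSNL replicate 2 over the next highest library differed by member. It was 115-fold for Fosb, 29.5-fold for Fos, 10.7-fold for Egr1, 5.58-fold for Junb, 4.78-fold for Ier2 and 3.60-fold for Fosl2. For Arc (1.64), Nr4a1 (1.40), Egr3 (1.22) and Jund (1.18) it was under 2-fold. Among the 11091 tested genes Fos had the largest such lead, Egr1 the second, Junb the third and Ier2 the fifth, and only 6 tested genes led by at least 4-fold there. For a single library this is a description and has no replicate behind it. A lead of at least 2-fold was found for 6 of 10 members, or 4 of the 8 tested, and for 0.37% of tested genes (41 genes). Counts of tested genes leave out what failed the filter. It can drop a gene high in 1 library only, as it did Fosb. The highest library was pSNL replicate 2 for 22.0% of tested genes. Sham replicate 3 led by at least 4-fold in 42 tested genes, none of them a member.

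The other pSNL libraries did not share this level. Replicate 3 lay above every sham library for 8 of 10 members (28.4% of tested genes), although for Fosb and Fosl2 its counts only equalled the highest sham count. Its ratio to the sham mean was 2.28 for Junb, 2.15 for Fos, 1.73 for Nr4a1, 1.57 for Ier2, 1.32 for Egr1 and 1.24 for Jund. Replicate 1 lay above every sham library for Egr3 and Arc (29.7% of tested genes did), below every one for Fos and Jund (26.1%), and within their range for the other 6. For Arc it held 33 counts, against 32 in sham replicate 3. Summed over the 10 members, the level was 266, 1585 and 444 CPM in pSNL replicates 1 to 3 and 305, 337 and 261 CPM in sham replicates 1 to 3. Against the sham mean these sums were 0.885, 5.27 and 1.48 in pSNL.

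Leaving out pSNL replicate 2, the log2 fold change shrank to 0.39 for Fos, 0.60 for Junb, 0.18 for Egr1, 0.14 for Ier2, 0.46 for Nr4a1, 0.34 for Egr3, 0.14 for Arc and 0.04 for Jund. None of the 8 was called, with edgeR adjusted p between 0.718 and 0.958, and the share of all genes called was 0.08% (9 of 11254). For Fosb and Fosl2, which the filter left out, the log2 ratio of mean CPM was 5.96 and 1.83 with all libraries and 0.26 and 0.93 without pSNL replicate 2, and edgeR with no filter gave adjusted p of 0.496 and 0.289 with all libraries. As a description, the median log2 fold change of the 8 tested members was 1.24, against -0.0024 over all tested genes. Without pSNL replicate 2 it was 0.26, against -0.0031. All 8 fold changes were positive in both, as were 49.4% of those of tested genes with all libraries. Leaving out pSNL replicate 1 instead gave the lowest adjusted p of any alternative, 0.0733 for Jund by edgeR.

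**Figure D2:**
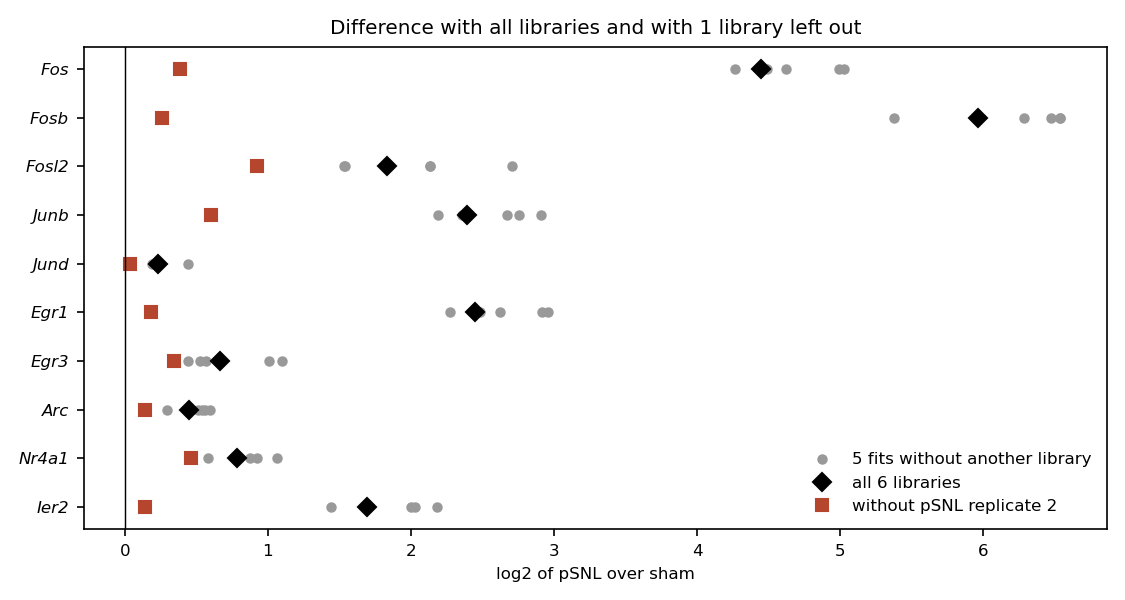
Log2 fold change of each member, pSNL over sham, with all 6 libraries and with each library left out in turn. For Fosb and Fosl2 the value is the log2 ratio of mean CPM. Without pSNL replicate 2 the value of Fos is 0.39 in place of 4.45, and its highest value, 5.03, is the one without pSNL replicate 1.

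Between genes, levels were compared as deposited FPKM, which divides by gene length. In 5 of the 6 libraries Jund was the most abundant member and Nr4a1 the second. Jund was at 65.4, 115 and 96.7 FPKM in pSNL replicates 1 to 3 and at 78.3 to 79.2 FPKM in sham libraries. In pSNL replicate 2 the order was Fos, Junb, Jund, Egr1 and Nr4a1, with Fos at 268 FPKM. Fos ranked sixth in pSNL replicate 3 and in all 3 sham libraries, and eighth in pSNL replicate 1.

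Across AP-1 families, FOS family FPKM summed to 6.28, 341 and 13.6 in pSNL replicates 1 to 3 and to 7.30, 8.44 and 6.88 in sham replicates 1 to 3. JUN family FPKM summed to 133, 414 and 211 in pSNL and to 132, 144 and 132 in sham. The ratio of FOS to JUN family FPKM was 0.0472, 0.824 and 0.0642 in pSNL and 0.0554, 0.0585 and 0.0520 in sham. FOS transcripts came close to JUN transcripts in pSNL replicate 2 alone.

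**Figure D3:**
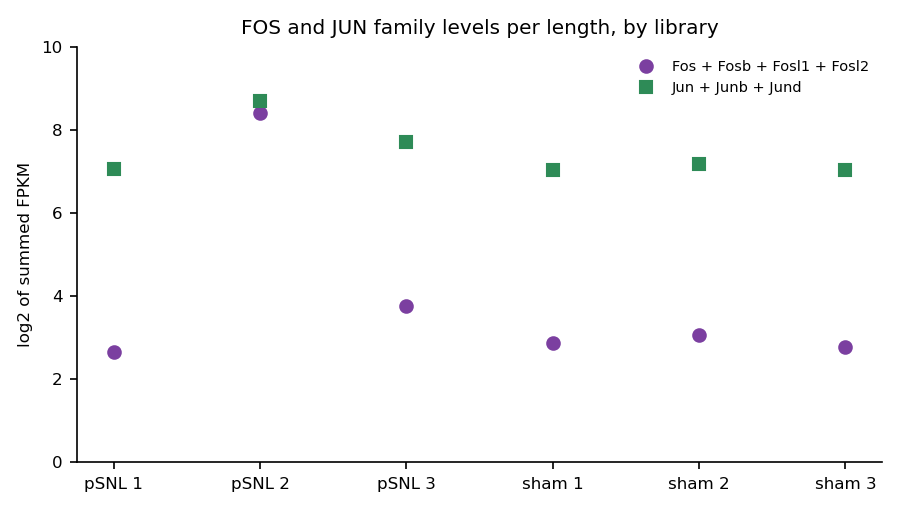
Log2 of the summed FPKM of the FOS family (Fos, Fosb, Fosl1, Fosl2) and of the JUN family (Jun, Junb, Jund), with 1 point for each pSNL and each sham library. FOS family transcripts reach 341 FPKM in pSNL replicate 2 and lie between 6.28 and 13.6 FPKM in the other libraries.

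None of the other AP-1 and ATF genes led by 2-fold in pSNL replicate 2. Of 14 such genes, 11 were tested, none was called by edgeR (4 had an unadjusted p under 0.05), DESeq2 called 1, and 6 were highest in pSNL replicate 2. Atf3, a transcription factor induced in injured sensory neurons, was at 97.6, 294 and 234 CPM in pSNL and at 11.5, 15.8 and 22.8 CPM in sham, so its groups did not overlap (log2 fold change 3.64 ± 0.56, SE, edgeR adjusted p = 0.089). Atf7, a related factor, was at 3.86, 6.94 and 2.98 CPM in pSNL and at 1.60, 1.38 and 1.84 CPM in sham (edgeR adjusted p = 0.140). For both genes all 3 pSNL libraries lay above every sham library. Jun, named here after its values were seen, was at 185, 534 and 290 CPM in pSNL and at 139, 163 and 145 CPM in sham, with 1.84 times the next library in pSNL replicate 2 (edgeR adjusted p = 0.304). Atf3 and Jun lay above all sham libraries in all 3 pSNL libraries, including replicate 1, where Fos was lowest.

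Relatives of the EGR and NR4A members were not called. Of 4 EGR and NAB genes, 3 were tested and none was called by edgeR or DESeq2 (1 at an unadjusted p under 0.05). Egr2, which also marks myelinating Schwann cells, was at 53.8, 127 and 109 CPM in pSNL and at 61.4, 32.6 and 32.4 CPM in sham (edgeR adjusted p = 0.301). Nab1 and Nab2, corepressors that bind EGR proteins, had log2 fold changes of 0.19 and 0.16 (edgeR adjusted p = 0.414 and 0.655). Nr4a2, the only other NR4A gene tested, was at 13.4, 20.6 and 17.7 CPM in pSNL and at 13.5, 11.2 and 10.1 CPM in sham (edgeR unadjusted p = 0.024, adjusted p = 0.247, and not called by DESeq2).

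Among 33 other rapid response genes 32 were tested, and 1 rose in pSNL by edgeR, the clock gene Per1 (unadjusted p under 0.05 for 13, and 7 called by DESeq2, against 15.5% and 3.01% of all tested genes). Per1 was at 99.4, 144 and 126 CPM in pSNL and at 69.2, 59.7 and 62.0 CPM in sham, with an edgeR log2 fold change of 0.95 ± 0.14 (SE, adjusted p = 0.021), and without pSNL replicate 2 its log2 fold change was 0.82 (adjusted p = 0.081, with fewer libraries in the fit). Of these 32 genes 30 had a positive fold change, 25 were highest in pSNL replicate 2 and 5 led there by at least 2-fold. Their median on the log2 scale was 0.70, or 0.32 with pSNL replicate 2 left out.

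The 5 genes outside the 10 whose pattern over the 6 libraries was nearest that of Fos were Socs3, Zfp36, Dusp1, C9h6orf141 and Pf4. Nearness was the root mean square difference of centred log2 CPM, and it was 1.09, 1.14, 1.31, 1.37 and 1.40 for them. Members Egr1 (0.930), Junb (0.957) and Ier2 (1.19) lay at similar distances, while Nr4a1, Arc, Jund and Egr3 lay between 1.85 and 2.06. Socs3, an inhibitor of cytokine signalling, was at 4.31, 46.7 and 8.49 CPM in pSNL and at 1.60, 2.30 and 1.61 CPM in sham. Zfp36, which promotes decay of AU-rich transcripts, was at 25.4, 275 and 64.2 CPM in pSNL and at 24.8, 24.1 and 12.6 CPM in sham. They were the only tested genes outside the 10 that led by at least 4-fold in pSNL replicate 2. Dusp1, a MAP kinase phosphatase, was at 22.0, 174 and 60.1 CPM in pSNL and at 27.5, 31.0 and 23.0 CPM in sham. None of these 3 was called by edgeR (adjusted p between 0.277 and 0.445). C9h6orf141 was at 2.50, 15.0 and 5.50 CPM in pSNL and at 0.917, 0.918 and 1.15 CPM in sham (edgeR adjusted p = 0.112). Pf4, a chemokine of platelets, was at 1.59, 45.3 and 8.03 CPM in pSNL and at 8.71, 3.90 and 15.4 CPM in sham (edgeR adjusted p = 0.775).

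Genes elsewhere in the same pathways had medians near that of all genes. Of 18 neuronal activity genes 14 were tested and none was called by edgeR, with a median log2 fold change of 0.03. Among the 14, 5 had an unadjusted edgeR p under 0.05 and DESeq2 called 2, against 15.5% and 3.01% of all tested genes. Vgf, a secreted neuropeptide precursor, was at 138, 323 and 241 CPM in pSNL and at 98.1, 87.9 and 103 CPM in sham (edgeR adjusted p = 0.160). Syt4, a synaptotagmin, had a log2 fold change of 0.60 and Nrn1, neuritin, of -0.36 (edgeR adjusted p = 0.116 and 0.186). Npas4, an activity-specific factor, was at 2 counts in pSNL replicate 2 and in sham replicate 2 and at 0 in the others. Of the MAP kinase phosphatases and feedback genes 13 of 15 were tested, none was called by edgeR or DESeq2 (1 at an unadjusted p under 0.05), and the median log2 fold change was -0.06. In pSNL replicate 2 the list summed to 1.41 times the sham mean, and only Dusp1 among the 13 led there by at least 2-fold (2.90-fold). The smallest p in this list belonged to Spry1, Dusp5 and Dusp6, feedback inhibitors of MAP kinase signalling (log2 fold change 0.83, -0.41 and 1.01, edgeR adjusted p = 0.261, 0.356 and 0.420). Of 34 upstream kinases and transcription factors 28 were tested, none was called by edgeR or DESeq2 (3 at an unadjusted p under 0.05), and their median was 0.08. Among them Rps6ka2, a ribosomal S6 kinase, was at 126, 127 and 120.4 CPM in pSNL and at 93.3, 98.7 and 97.4 CPM in sham (edgeR adjusted p = 0.086), with Crem and Ppp3cb at 0.201 and 0.221. Heat shock genes, a separate list (13 of 14 tested), had none called by edgeR, 3 at an unadjusted p under 0.05 and 1 called by DESeq2. None was highest in pSNL replicate 2. Their median log2 fold change was -0.14, and 2 of the 13 were positive. The 3 with the smallest p were Hspb1, Hspd1 and Hsph1, all chaperones (log2 fold change 0.86, -0.25 and -0.21, edgeR adjusted p = 0.089, 0.234 and 0.273).

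**Figure D4:**
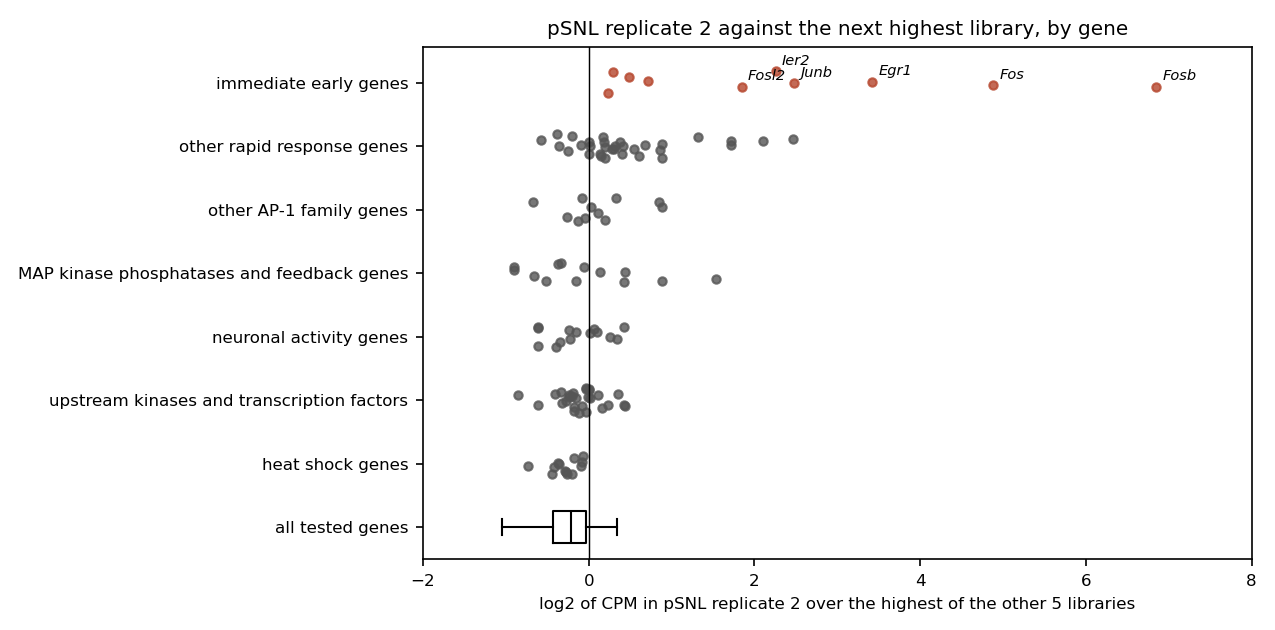
Level in pSNL replicate 2 over the highest of the other 5 libraries (log2), with 1 point per gene of each list and, for all tested genes above 0, a box of the interquartile range with its median and whiskers to percentiles 5 and 95. Fosb, Fos, Egr1, Junb and Ier2 lie at or beyond 2 on this axis, as do Socs3 and Zfp36 of the other rapid response genes. Heat shock genes all lie below 0.

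Markers of other cells also varied between libraries. Fibroblast markers summed to 4308, 7127 and 5008 CPM in pSNL and to 3859, 2671 and 1783 CPM in sham; 8 of 8 were highest in pSNL replicate 2 and did not overlap between groups (11.1% of tested genes did not overlap and were higher), and no defining marker was at 0 in any library. Of these 8, 1 rose by edgeR (Mgp, log2 fold change 0.86, or 0.78 and no longer called without pSNL replicate 2), 7 were at an unadjusted p under 0.05, and 4 were called by DESeq2. Macrophage markers summed to 331, 552 and 561 CPM in pSNL and to 209, 192 and 256 CPM in sham. Of these 14, 6 were highest in pSNL replicate 2, no defining marker was at 0, and none was called by edgeR (9 at an unadjusted p under 0.05, DESeq2 called 6). The defining ones (Cd68, Csf1r, Aif1, Cd163, C1qa) summed to 88.5, 135 and 137 CPM in pSNL. In sham they summed to 49.1, 52.8 and 94.2 CPM, so the groups overlapped. Cd163 had a log2 fold change of -0.55 (edgeR adjusted p = 0.659), whereas 13 of the 14 were positive. Sensory neuron markers summed to 50034, 45732 and 47165 CPM in pSNL and to 57680, 59453 and 47381 CPM in sham, and none of the 13 was highest in pSNL replicate 2. Relative to the sham mean, pSNL replicate 2 had fibroblast markers at 2.57, macrophage markers at 2.52 and the summed immediate early genes at 5.27. Single members ranged there from 1.46 for Jund to 185 for Fosb. Fos was at 63.2, Egr1 at 14.2, Nr4a1 at 2.43, Egr3 at 2.22 and Arc at 1.88. Schwann cell markers stood at 1.19 there, endothelial markers at 0.853, red blood cell markers at 0.778 and satellite glia markers at 0.650. The defining T cell markers Cd3e, Cd3d and Cd8a summed to 0 to 0.925 CPM over the 6 libraries. The part of these cells in the level of the early genes was not tested.

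**Figure D5:**
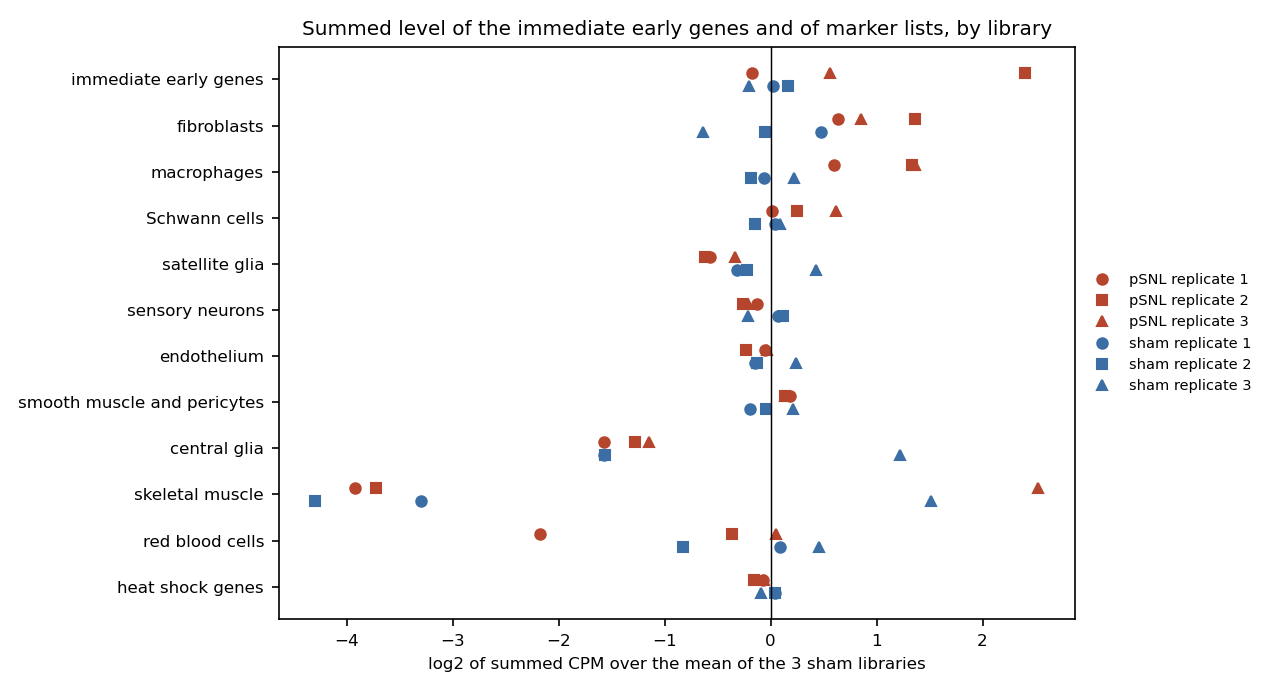
Log2 of the summed CPM of the immediate early genes, the cell type marker lists and the heat shock genes in each library over the mean of the 3 sham libraries, with pSNL in red, sham in blue and marker shapes for replicate numbers. The neutrophil and T cell marker lists are not drawn. As plain ratios, immediate early genes reach 5.27 in pSNL replicate 2, where fibroblast markers reach 2.57, macrophage markers 2.52 and heat shock genes 0.895.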

How the data were processed

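RNA of 6 libraries was measured by sequencing. Per the labels' protocols, ganglia were flash frozen, RNA was extracted with Trizol, and a BGISEQ-500 kit was used on 1 µg of it, although Illumina preparation is mentioned too. Groups and replicate numbers came from the sample titles. Per the file headers, the authors' deposited files list for each gene a length, an expected count and an FPKM. CASAVA 1.4 and Bowtie2 are named in the submitters' processing notes. Quantifier, build, annotation and strand setting: not given in the sources used here. Of the expected counts, 89.1% to 89.5% were whole, and they were rounded.

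Gene IDs were matched to a RefSeq table of GRCr8 (14227 by ID, 11 by transcript, 108 kept by ID). Groups were compared in R 4.3.3 by edgeR 4.0.16 (TMM scaling, filterByExpr, robust quasi-likelihood fit), with Benjamini-Hochberg adjustment over 11091 genes. Standard errors came from the test statistic. Fosb and Fosl2 failed the filter and got exact count intervals (95%, counting error only, since reads carry no molecular identifiers) and exact permutation tests. FPKM served only to compare genes. Alternatives were median-ratio factors, library totals, DESeq2 1.42.0, no filter, a mean of at least 5 CPM, no robust option, a replicate block, and each library left out. The fit was tested on simulated counts.

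All members were named, with the genes of smallest p in each related list (every called gene up to 4, otherwise 3), the 5 genes nearest Fos and defining cell markers; a result that this rule would name is not reported here. The members and lists were chosen with earlier results of these data known.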

Additional observations from a re-analysis of the deposited data

How the results depend on the processing

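The count of members called by edgeR's quasi-likelihood test was 0 under every setting, and all 122 alternative values of the members' log2 changes kept their direction. The 104 with an adjusted p stayed above the threshold; 2 (Fos and Egr1 under DESeq2) had no p, and 16 (Fosb and Fosl2) had only an exact permutation p, which cannot reach 0.05 in this design. There was no value for Egr3 and Fosl2 under a mean of at least 5 CPM, nor for Fosb and Fosl2 under DESeq2, the block and the fit without the robust option. Over all tested genes, the count called was 51 (49 higher, 2 lower in pSNL), against 334 with DESeq2, 89 with no filter on low counts and 111 with the replicate number as a block, where Fos had a log2 fold change of 3.30. Leaving out 1 library gave 5 to 217: it was 217, 9 and 96 without pSNL replicates 1, 2 and 3, and 21, 5 and 33 without sham replicates 1, 2 and 3. The labels do not say whether same-numbered libraries belong together. Skeletal muscle markers were high in replicate 3 of both groups (1149 CPM in pSNL and 567 CPM in sham). The correlations of same-numbered libraries' deviations were 0.032, 0.011 and 0.123. Those of differently numbered libraries ran from -0.105 to 0.104. The cause of the differing counts called was not tested. Without pSNL replicate 2, an alternative chosen after seeing the data, 0 other rapid response genes were called in place of 1 (Per1, whose log2 fold change was 0.82 in place of 0.95).

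Depth limits Fosb, Fosl2, Egr3 and Arc most, whose sham libraries held at most 8, 7, 25 and 32 counts. With 3 libraries a group and 1 of them far from the others, a difference between pSNL and sham smaller than that spread was not detectable for Fos, Fosb, Junb, Egr1 and Ier2.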
